A study of Mus musculus with 8 samples.

Results

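The 10 genes described here make leukotrienes and prostaglandins: *Pla2g4a*, *Alox5*, *Alox5ap*, *Lta4h*, *Ltc4s*, *Ptgs1*, *Ptgs2*, *Hpgds*, *Ptges* and *Ptgis*. They were chosen by name from the 54532 genes of a table of RNAseq read counts, and each had 1 entry in it. The table holds 8 libraries of FACS-sorted mG+ (GFP+) cells, 1 library per genotype in each of 4 pairs. The pairs are subcutaneous adipose tissue (SAT) of mice fed a high-fat diet (HFD) from month 1 to month 8, and, from mice on chow, SAT, intraperitoneal visceral adipose tissue (VAT) and gastrocnemius muscle. KO libraries came from Tie2e-cre; TERTfl/fl; mTmG females (EC-*Tert*-KO) and WT libraries from Tie2e-cre; TERT+/+; mTmG females, all aged 8 months, so that both genotypes carried the Cre transgene and the reporter. Cre was driven by the *Tie2e* promoter, which the study calls endothelial cell (EC)-specific, and mG marks cells in which Cre has been active. It was not stated if a library pooled more than 1 mouse.

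Leukotrienes and prostaglandins are short-lived signalling lipids made from arachidonic acid, a fatty acid that phospholipases A2 cut out of membranes. The lipoxygenase branch turns it into leukotriene A4, from which come leukotriene B4, an attractant of neutrophils, and the cysteinyl leukotrienes, which make vessels leak and smooth muscle contract. The cyclooxygenase branch makes prostaglandin H2, from which separate synthases make prostaglandin D2, prostaglandin E2, prostacyclin and thromboxane. Myeloid cells are a known source of leukotrienes, and EC are a known source of prostacyclin.

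Library totals ran from 6214269 to 18855772 counts, and the 10 genes together took between 0.0171% and 0.0981% of a library. All 10 passed the filter of a mean of at least 10 counts over the 8 libraries. *Tert* was lower in KO than in WT in 3 of the pairs, with 114 and 0 counts in SAT on HFD, 70 and 11 in SAT on chow, and 24 and 7 in muscle. In VAT it went against the labels, with 3 counts in the library labelled WT and 9 in the library labelled EC-*Tert*-KO. The WT library of SAT on chow stood apart in *Malat1*, an abundant nuclear RNA, with 292 CPM against 2149 to 5836 CPM in the others (CPM, counts per 1000000 after TMM scaling of the library). All 12 EC markers examined had counts in every library, and their summed level ran from 368 to 794 CPM in the SAT libraries and from 2084 to 3053 CPM in VAT and muscle. Markers of other cells were present as well. The 10 macrophage markers summed to 9406 and 9274 CPM in the WT and KO libraries of VAT against 201 to 866 CPM elsewhere. The 10 neutrophil markers summed to 26811 and 30615 CPM in those of muscle against 79.5 to 1007 CPM elsewhere, and *Ly6g* was at 0 in both SAT HFD libraries. In such bulk samples, fewer cells of a type and less RNA per cell cannot be told apart.

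**Figure D1:**
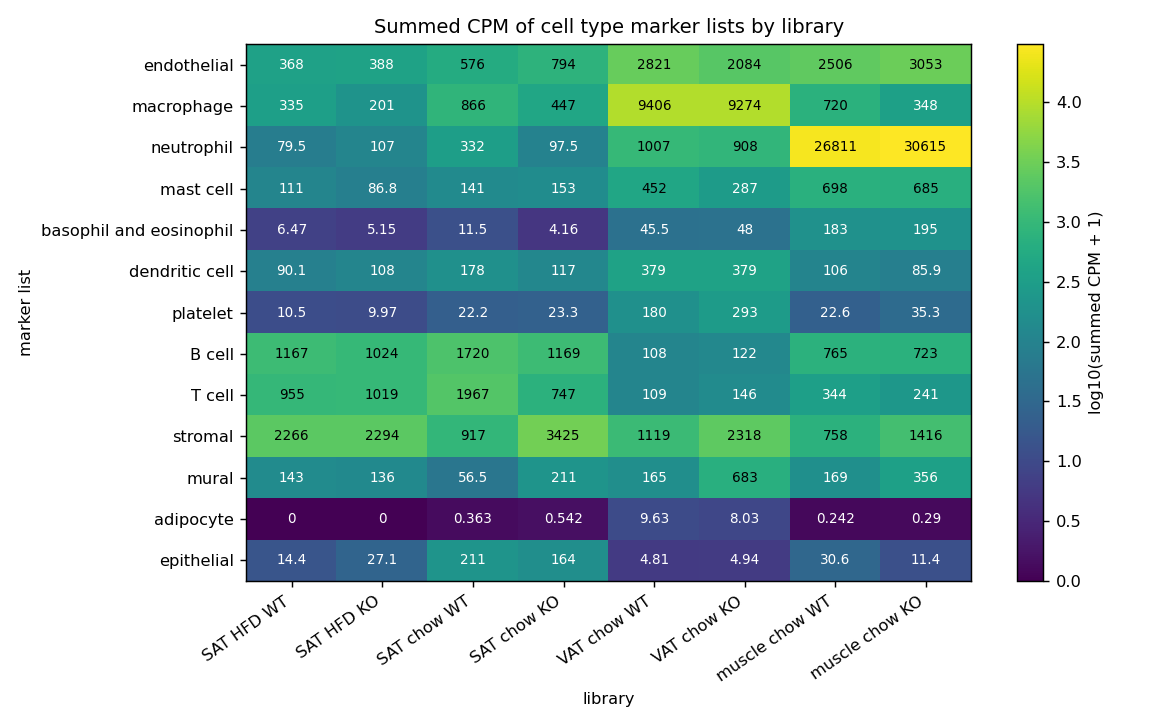
Summed CPM of 13 lists of cell type markers (rows) in the 8 libraries (columns), with colour on a log10 scale of the sum + 1 and the sum printed in each cell. Macrophage markers reached 9406 and 9274 CPM in the VAT libraries, neutrophil markers reached 26811 and 30615 CPM in the muscle libraries, and adipocyte markers did not exceed 9.63 CPM in any library.

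The sequences around the starts of 5 of the genes are shown because 4 of them (*Alox5*, *Ltc4s*, *Ptgs1* and *Hpgds*) were higher in VAT than in SAT, as described further on, and because *Ptgs2* was beyond 2-fold higher in the KO library of SAT on chow. They are RefSeq sequences of the GRCm38.p6 build, 5′ to 3′ on the strand of the gene, from 250 bases before the start to 50 bases after it, and RefSeq entries of this kind were matched for 8 of the 10 genes. They lie at chr6:116461129-116461428 (minus strand) for *Alox5*, chr11:50238483-50238782 (minus strand) for *Ltc4s*, chr2:36230176-36230475 (plus strand) for *Ptgs1*, chr6:65144681-65144980 (minus strand) for *Hpgds* and chr1:150099781-150100080 (plus strand) for *Ptgs2*. Capitals mark matches to short motifs, which were chosen after the sequences and the levels had been seen.
*Alox5*: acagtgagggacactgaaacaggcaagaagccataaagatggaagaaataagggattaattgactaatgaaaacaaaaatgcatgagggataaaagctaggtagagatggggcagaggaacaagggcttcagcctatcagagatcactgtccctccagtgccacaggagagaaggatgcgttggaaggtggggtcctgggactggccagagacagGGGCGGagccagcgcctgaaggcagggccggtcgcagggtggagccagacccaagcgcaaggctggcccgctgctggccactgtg
*Ltc4s*: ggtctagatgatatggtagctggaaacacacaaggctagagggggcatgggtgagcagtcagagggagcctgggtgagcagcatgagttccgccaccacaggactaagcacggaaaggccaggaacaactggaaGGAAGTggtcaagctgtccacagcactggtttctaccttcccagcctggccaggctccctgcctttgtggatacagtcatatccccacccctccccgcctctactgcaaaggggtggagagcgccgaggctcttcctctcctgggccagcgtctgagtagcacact
*Ptgs1*: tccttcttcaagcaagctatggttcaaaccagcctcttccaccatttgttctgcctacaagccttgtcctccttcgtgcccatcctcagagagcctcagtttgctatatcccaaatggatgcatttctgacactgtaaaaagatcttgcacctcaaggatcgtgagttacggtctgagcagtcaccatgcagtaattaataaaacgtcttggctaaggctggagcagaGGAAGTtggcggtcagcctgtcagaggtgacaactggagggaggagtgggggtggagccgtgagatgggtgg
*Hpgds*: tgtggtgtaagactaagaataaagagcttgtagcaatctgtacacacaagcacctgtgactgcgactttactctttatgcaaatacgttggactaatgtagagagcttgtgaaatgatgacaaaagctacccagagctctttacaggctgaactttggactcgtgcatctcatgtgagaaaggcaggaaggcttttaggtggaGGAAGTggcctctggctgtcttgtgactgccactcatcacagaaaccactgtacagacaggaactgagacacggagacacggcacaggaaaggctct
*Ptgs2*: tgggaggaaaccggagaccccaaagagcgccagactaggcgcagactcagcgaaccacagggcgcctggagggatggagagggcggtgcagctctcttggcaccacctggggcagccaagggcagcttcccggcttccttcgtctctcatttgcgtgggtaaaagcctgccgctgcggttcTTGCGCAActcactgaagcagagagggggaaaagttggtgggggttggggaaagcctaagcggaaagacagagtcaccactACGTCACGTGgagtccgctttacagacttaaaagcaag
Counted with the start base as position 1 and the base before it as −1, *Ltc4s*, *Ptgs1* and *Hpgds* each hold GGAAGT, a core bound by ETS-family factors such as PU.1, beginning at −116, −22 and −47. Searched on both strands, GGAAGT occurs in 23.8% of the 32851 RefSeq promoters of the same length. The capitals in *Alox5* are a GC box, GGGCGG, at −35, which 35.7% of promoters hold. *Ptgs2* holds the C/EBP palindrome TTGCGCAA at −69, found in 0.2% of promoters, and a run in which ACGTCA, the core of a cAMP response element, at 13 overlaps the E-box CACGTG at 17, found in 7.5% and 7.2% of promoters. A GC box at −170 in *Ptgs2* is not capitalised. A match describes letters only and does not show that a factor binds there.

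*Alox5*, *Alox5ap* and *Ltc4s* of the leukotriene branch and *Ptgs1* and *Hpgds* of the prostaglandin branch were higher in mG+ cells of VAT than in those of SAT on chow, and *Alox5* and *Alox5ap* were also higher in those of muscle. To ask whether levels differed by tissue and diet, edgeR's quasi-likelihood test was fitted over 16971 genes with genotype as a term, so that the WT and the KO library of a tissue served as its 2 libraries. Nothing in the labels shows that these come from more than 1 mouse each, and the p-values measure only the spread between these libraries. Any difference between the 4 tissues and diets was called for 7 of the 10 genes, against 7.83% of all genes tested. The exceptions were *Ptgs2* (adjusted p = 0.0503), *Ptgis* (0.701) and *Ptges* (0.789), by edgeR with Benjamini-Hochberg adjustment as for all adjusted p-values here. Fewer of the 10 genes were called without 1 library of VAT or muscle or without the SAT HFD WT library, and so were fewer of all genes. Such a fit leaves 1 library in a tissue and diet.

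In VAT against SAT on chow, 5 of the 10 genes were higher and 0 were lower, where 5.05% of all genes were called, 3.31% higher and 1.74% lower. The 10 genes had a median log2 difference of 2.15, against −0.08 over all genes tested. In muscle against SAT on chow 2 were higher and 0 lower (1.26% of all genes called, 1.11% higher and 0.147% lower), and the median was 1.55 against −0.09. In muscle against VAT 0 were higher and 2 lower (1.93%, with 0.884% higher and 1.05% lower), with a median of −0.20 against 0.02. Without regard to the test, both VAT libraries lay above both SAT chow libraries in 8 of the 10 genes and below them in 0, against 27.8% and 28.1% of all genes. Both muscle libraries lay above both SAT chow libraries in 6 and below in 0 (21.2% and 22.5%), and above both VAT libraries in 2 and below in 5 (31.7% and 30%). Fewer of the 10 genes were called without 1 library of VAT, and in the muscle comparisons without 1 of muscle. Fewer of all genes were called as well, and such a fit leaves 1 library in a tissue. Without any 1 of the 8 libraries, the log2 difference of VAT minus SAT on chow ran from 3.99 to 4.48 for *Alox5* and 1.99 to 2.89 for *Alox5ap*. It ran from 3.90 to 5.33 for *Ltc4s*, 2.79 to 3.21 for *Ptgs1* and 2.10 to 3.68 for *Hpgds*. These 3 comparisons share libraries and are not independent of each other. In each of them the 2 libraries of a tissue differ in genotype, so that the spread between them is not that of replicates of 1 condition.

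**Figure D2:**
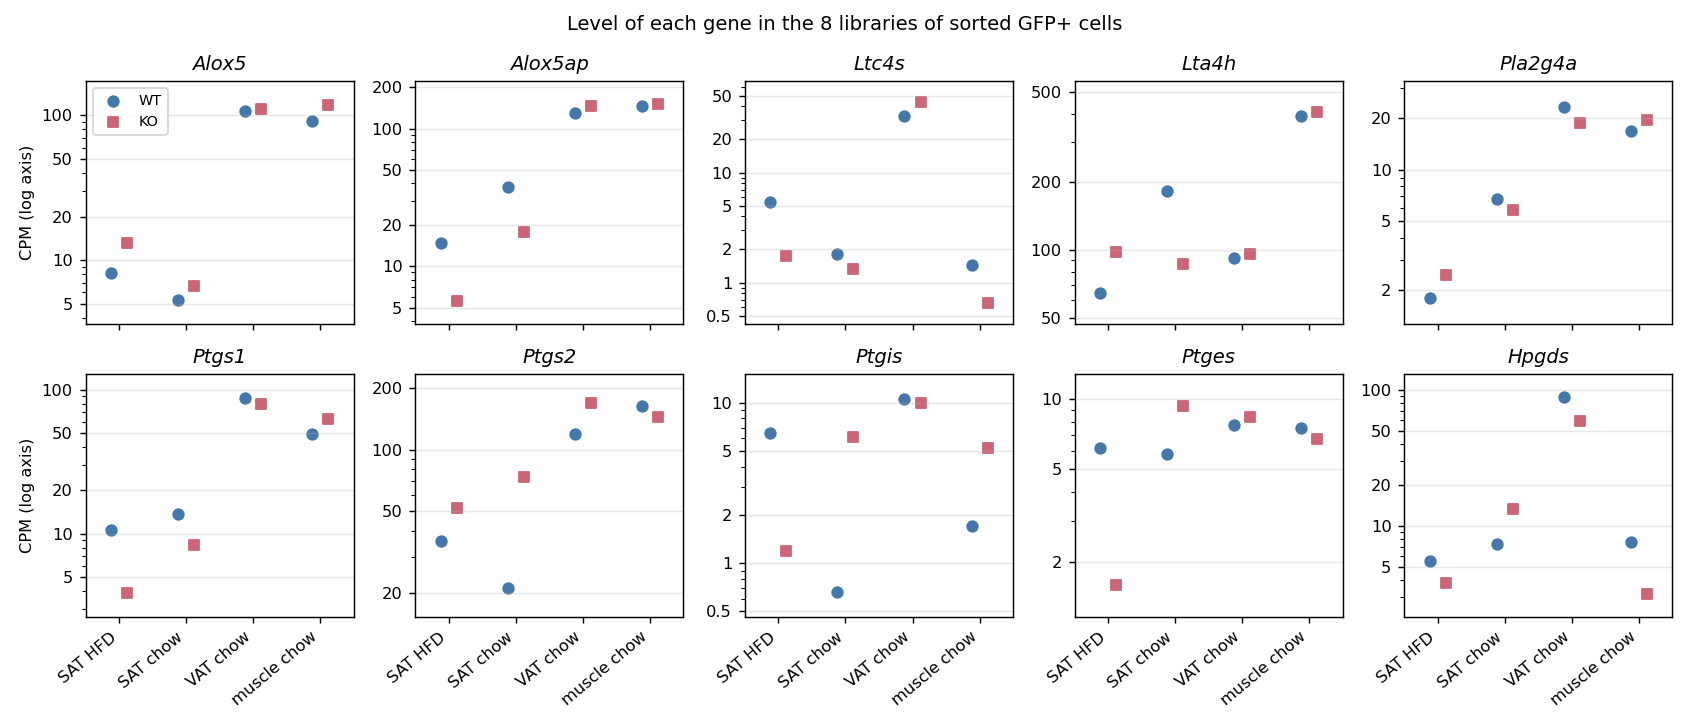
Level of each gene in CPM (log axis) in the 8 libraries, with 1 circle for the WT and 1 square for the KO library of each tissue and diet. *Alox5* lies between 91.8 and 118 CPM in VAT and muscle and between 5.32 and 13.1 CPM in SAT, while *Ltc4s* and *Hpgds* are high in VAT only among these libraries.

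*Pla2g4a* (ENSMUSG00000056220, chromosome 1, 149829618 to 149961290, GRCm38) encodes cytosolic phospholipase A2, which frees arachidonic acid from membranes. Its WT and KO libraries read 1.81 and 2.45 CPM in SAT on HFD, 6.77 and 5.85 in SAT on chow, 16.8 and 19.3 in muscle, and 23.1 and 18.7 in VAT. The VAT and muscle libraries overlapped each other, and all 4 lay above all 4 SAT libraries. The pairwise differences did not pass the test: the log2 difference was 1.73 (SE 0.518, adjusted p = 0.110) for VAT and 1.52 (SE 0.515, adjusted p = 0.271) for muscle, each against SAT on chow. The test of any difference gave an adjusted p of 0.0256, but this rested on several libraries: it reached 0.164 when 1 library was left out, and was above 0.05 without the SAT HFD WT library or without any 1 of the VAT and muscle libraries. *Pla2g4a* lies next to *Ptgs2* on chromosome 1, with 138740 bases between the ends of the genes.

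*Alox5* (ENSMUSG00000025701, chromosome 6, 116410077 to 116461178) encodes 5-lipoxygenase, the enzyme that makes leukotriene A4. It stood at 8.13 and 13.1 CPM (WT and KO) in SAT on HFD and at 5.32 and 6.63 in SAT on chow. In VAT it was at 108 and 110.4 CPM, and in muscle at 91.8 and 118. SAT was thus low and VAT and muscle high, with no overlap, and the VAT and muscle libraries overlapped. *Alox5* was 18.5-fold higher in VAT than in SAT on chow, a log2 difference of 4.21 (SE 0.344, adjusted p = 0.00436), and 17.5-fold higher in muscle, 4.13 (SE 0.343, adjusted p = 0.00910). Both calls withstood the removal of each library: without any 1 of the 8, the adjusted p stayed at or under 0.0307 for VAT and 0.0247 for muscle.

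*Alox5ap* (ENSMUSG00000060063, chromosome 5, 149264767 to 149288153) encodes FLAP, the membrane protein that hands arachidonic acid to 5-lipoxygenase. It read 14.7 and 5.62 CPM (WT and KO) in SAT on HFD, 37.8 and 17.6 in SAT on chow, 147 and 151 in muscle, and 130.1 and 146 in VAT. VAT and muscle again stood above SAT without overlap, and here SAT on chow stood above SAT on HFD. *Alox5ap* was 5.39-fold higher in VAT than in SAT on chow (log2 2.43, SE 0.456, adjusted p = 0.0260) and 5.77-fold higher in muscle (2.53, SE 0.456, adjusted p = 0.0471). The VAT call was lost without the VAT WT or the VAT KO library (adjusted p up to 0.151). The muscle call, close to the threshold, was lost without any 1 of the SAT chow WT, VAT or muscle libraries (up to 0.329).

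After leukotriene A4 the branch divides, and its 2 enzymes were high in different tissues. *Ltc4s* (ENSMUSG00000020377, chromosome 11, 50236461 to 50238616) encodes leukotriene C4 synthase, the first enzyme of the cysteinyl leukotrienes. It was at 32.9 and 44.0 CPM in the WT and KO libraries of VAT, against 5.42 and 1.74 in SAT on HFD, 1.81 and 1.33 in SAT on chow, and 1.45 and 0.652 in muscle, the last from 9 counts. VAT stood clear of every other library, and the other 6 overlapped. The difference was 26.1-fold against SAT on chow (log2 4.71, SE 0.732, adjusted p = 0.0148) and 40.4-fold against muscle (log2 of muscle minus VAT −5.34, SE 0.762, adjusted p = 0.0160). Without the VAT WT or the VAT KO library neither call held, and without the WT or the KO library of muscle the call against muscle did not hold (adjusted p up to 0.205 and 0.277).

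*Lta4h* (ENSMUSG00000015889, chromosome 10, 93453411 to 93484875) encodes leukotriene A4 hydrolase, which makes leukotriene B4 and is found in many cell types. Its WT and KO libraries read 391 and 409 CPM in muscle, 91.7 and 95.8 in VAT, 183 and 87.1 in SAT on chow, and 64.6 and 97.5 in SAT on HFD. Muscle stood above all other libraries, which overlapped. The log2 difference of muscle minus VAT was 2.09 (SE 0.424), a 4.27-fold difference whose adjusted p of 0.0535 missed the threshold. By DESeq2's test it was 6.27e-05, and over the 16 alternatives it ran from 2.17e-05 to 0.398. The test of any difference gave an adjusted p of 0.0249, which rose above 0.05, up to 0.206, without the SAT HFD WT library or without any 1 of the VAT and muscle libraries.

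Many marker lists differed between the same libraries. EC markers summed to 2084 to 3053 CPM in VAT and muscle and to 368 to 794 in SAT. *Pla2g4a*, *Alox5*, *Alox5ap*, *Ptgs1* and *Ptgs2* likewise separated SAT from VAT and muscle. Platelet markers summed to 180 and 293 CPM in VAT and to 9.97 to 35.3 elsewhere. The sum in VAT was mostly 1 gene, *Pf4*, at 168 and 275 CPM, and the other platelet markers did not go 1 way. *Gp9* was higher in VAT than elsewhere (4.48 and 7.29 CPM). *Itga2b* did not exceed 8.18 CPM in VAT and was at 13.2 CPM or more in muscle. *Gp1bb* was at 0 in every library. Basophil and eosinophil markers summed to 183 and 195 CPM in muscle and to 4.16 to 48.0 elsewhere, but the markers did not go 1 way. *Prg2* (93.0 and 115 CPM in muscle), *Mcpt8* (48.9 and 39.9) and *Epx* (30.6 and 29.7) were highest in muscle. *Siglecf* (16.2 and 12.8 CPM in VAT, 6.24 and 8.55 in muscle) and *Ccr3* (26.9 and 30.7, 4.55 and 2.39) were highest in VAT. B cell markers (108 and 122 CPM) and T cell markers (109 and 146) were lowest in VAT. Both VAT libraries, where *Ltc4s* was high, carried macrophage markers at more than 10 times the sum of any other library, among them *Mrc1* at 2304 and 1986 CPM, and 9 mast cell markers at 452 and 287 CPM. Both muscle libraries, where *Lta4h* was high, carried the neutrophil markers, among them *S100a9* at 6579 and 8245 CPM. Mast cell markers summed to 698 and 685 CPM in muscle and to 86.8 to 153 CPM in SAT, with 3 of the 9 at 0 in each SAT HFD library. The sum in muscle was mostly *Hdc*, histidine decarboxylase, which other myeloid cells express too, at 612 and 595 CPM. Without *Hdc* the other 8 mast cell markers summed to 85.3 and 89.9 CPM in muscle, 135 and 117 in SAT on chow, 75.8 and 58.6 in SAT on HFD, and 304 and 182 in VAT. The mast cell protease *Mcpt4* did not exceed 2.25 CPM in muscle and ran from 12.1 to 33.3 in SAT. *Tpsb2* was lower in muscle as well (2.67 and 0.580 CPM, against 7.22 to 20.9 in SAT). Other markers of the list went the other way. *Kit* (44.1 and 49.6 CPM in muscle), *Fcer1a* (8.67 and 6.45) and *Ms4a2* (8.79 and 10.5) were higher in muscle than in every SAT library. The part of these cells in the levels of the 10 genes was not tested.

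**Figure D3:**
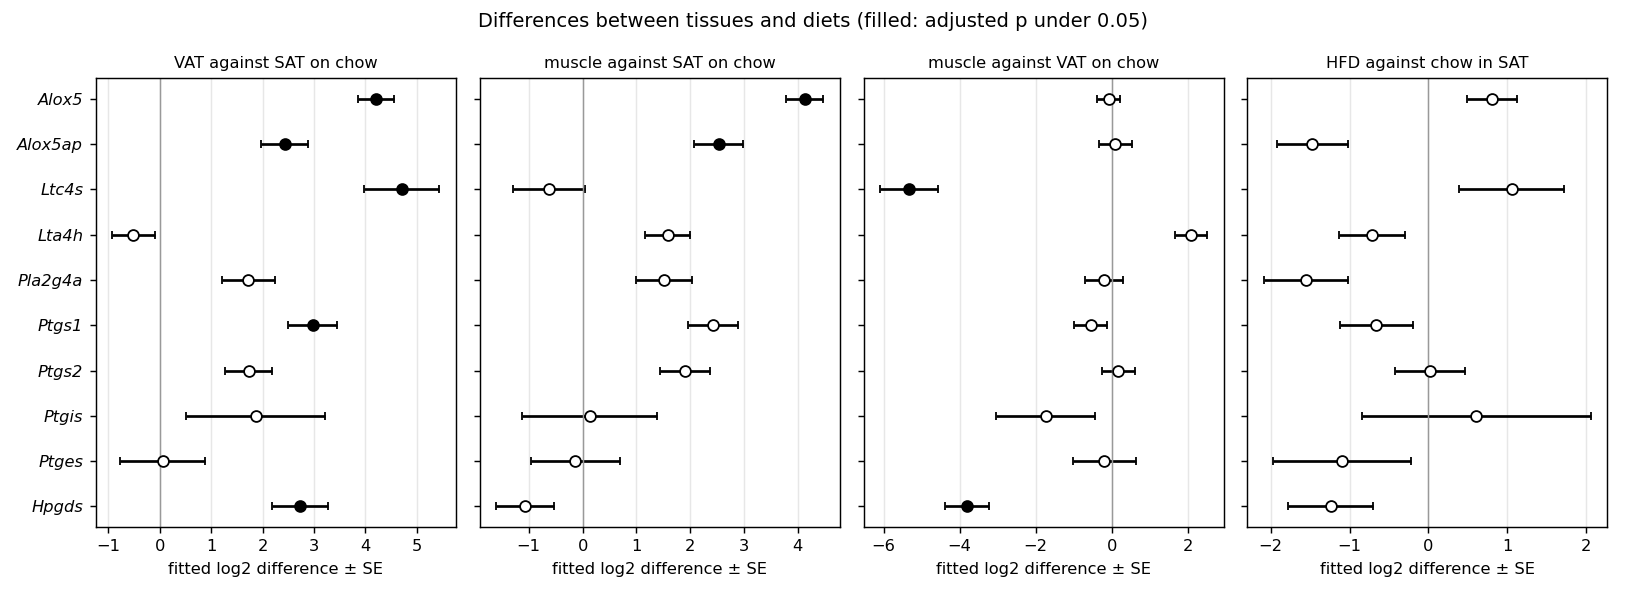
Fitted log2 difference (x axis, ± SE) of each gene in 4 comparisons of tissue or diet, 2 libraries a side, with filled points for an adjusted p under 0.05. In VAT against SAT on chow 5 points are filled, in muscle against SAT 2, in muscle against VAT 2, and in HFD against chow 0.

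The 2 cyclooxygenases, which make prostaglandin H2, differed in how they varied. *Ptgs1* (ENSMUSG00000047250, chromosome 2, 36230426 to 36252272) encodes the form that most tissues make all the time. WT and KO libraries read 87.7 and 79.8 CPM in VAT, 49.5 and 62.2 in muscle, 13.6 and 8.38 in SAT on chow, and 10.7 and 3.88 in SAT on HFD, so that VAT, muscle and SAT formed 3 levels without overlap. *Ptgs1* was 7.84-fold higher in VAT than in SAT on chow (log2 2.97, SE 0.474, adjusted p = 0.0157), a call lost without the VAT WT or the VAT KO library (adjusted p up to 0.0959). In muscle against SAT on chow its difference of 5.36-fold (log2 2.42, SE 0.466) gave an adjusted p of 0.0571.

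*Ptgs2* (ENSMUSG00000032487, chromosome 1, 150100031 to 150108227) encodes the inducible cyclooxygenase. Its WT and KO libraries read 36.0 and 51.9 CPM in SAT on HFD, 21.3 and 73.1 in SAT on chow, 163 and 145 in muscle, and 119 and 168 in VAT. The VAT and muscle libraries lay above the SAT libraries, but the spread within SAT on chow was wide. The log2 difference was 1.73 (SE 0.455, adjusted p = 0.0749) for VAT and 1.91 (SE 0.463, adjusted p = 0.112) for muscle against SAT on chow. DESeq2's test called both, with adjusted p-values of 0.00347 and 0.00245, and over the 16 alternatives they ran up to 0.340 and 0.674.

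Of the 3 synthases downstream of prostaglandin H2 among the 10 genes, *Hpgds* was the one called between tissues. *Hpgds* (ENSMUSG00000029919, chromosome 6, 65117293 to 65144908) encodes the hematopoietic prostaglandin D2 synthase, a glutathione-dependent enzyme known from mast cells, macrophages and T cells. It was at 88.0 and 59.2 CPM in VAT, 7.44 and 13.4 in SAT on chow, 5.57 and 3.80 in SAT on HFD, and 7.58 and 3.19 in muscle. The VAT libraries stood alone, 6.65-fold above SAT on chow (log2 2.73, SE 0.547, adjusted p = 0.0321) and 14.0-fold above muscle (log2 of muscle minus VAT −3.80, SE 0.571, adjusted p = 0.0188). Both calls were lost without the VAT WT or the VAT KO library and the one against muscle also without the WT or the KO library of muscle (adjusted p up to 0.250 and 0.202).

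*Ptges* (ENSMUSG00000050737, chromosome 2, 30889471 to 30929863), the inducible prostaglandin E2 synthase of membranes, varied least, from 1.58 to 9.40 CPM. Apart from 1.58 CPM in the KO library of SAT on HFD, its values ran from 5.80 to 9.40 CPM in every tissue. *Ptgis* (ENSMUSG00000017969, chromosome 2, 167191805 to 167240604), prostacyclin synthase, was at 10.5 and 9.95 CPM in VAT, 6.47 and 1.19 in SAT on HFD, 0.665 and 6.09 in SAT on chow, and 1.70 and 5.22 in muscle. The VAT libraries of *Ptgis* were close together and above all others, whereas the WT and KO libraries of each other tissue were far apart. Its log2 difference of VAT minus SAT on chow was 1.86 with an SE of 1.35 (adjusted p = 0.496).

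High-fat feeding was compared with chow in SAT. By edgeR, 0 of the 10 genes and 0% of all genes passed the adjusted threshold, 3 of the 10 had an unadjusted p under 0.05 (7.98% of all genes), and DESeq2 called 0 of the 10 and 260 of all genes. The median log2 difference of the 10 genes was −0.69, against −0.24 over all genes tested. *Alox5* and *Alox5ap*, whose products act together, had differences of opposite sign. *Alox5* was 10.6 CPM on HFD and 5.97 on chow (log2 0.81, SE 0.316, adjusted p = 0.599), and *Alox5ap* was 10.2 and 27.7 CPM (log2 −1.48, SE 0.450, adjusted p = 0.568). *Pla2g4a* was 2.13 and 6.31 CPM (log2 −1.55, SE 0.535, adjusted p = 0.588). Both libraries on HFD lay above both on chow in 1 of the 10 genes, *Alox5*, and below them in 3, *Alox5ap*, *Pla2g4a* and *Hpgds*, against 8.41% and 22.7% of all genes. *Alox5ap* was called lower on HFD only when genes with at least 1 count in total were tested (adjusted p = 0.0332, the lowest of its 16 alternatives). Macrophage markers summed to 335 and 201 CPM on HFD and to 866 and 447 on chow, and their part was not tested. Without the chow WT library, which stood apart in *Malat1*, the difference of *Alox5ap* was −0.96 (SE 0.492) and that of *Alox5* 0.90 (SE 0.316).

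Levels of different genes can be set side by side only per length, as RPKM, the CPM divided by the gene length of the table in kilobases. On this scale *Alox5ap* led the 10 genes in VAT and muscle, with 91.6 to 106 RPKM, which was 38.6% to 42.0% of their sum. In muscle *Lta4h* came next with 64.1 and 67.0 RPKM, and in VAT *Ltc4s* did (32.5 and 43.4), followed by *Alox5* in the WT library (26.3) and by *Ptgs2* in the KO library (36.7). In SAT the leading gene was *Lta4h* in 3 libraries and *Ptgs2* in the KO library on chow. The sum over the 10 genes was 237 to 264 RPKM in VAT and muscle and 39.0 to 71.8 in SAT. *Ptgs2* exceeded *Ptgs1* per length in all 8 libraries, by 1.15 times in the WT library of VAT and by up to 11.3 times in the KO library of SAT on HFD. *Ptgis*, at 0.259 to 4.10 RPKM, and *Pla2g4a*, at 0.283 to 3.61, were among the lowest of the 10.

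**Figure D4:**
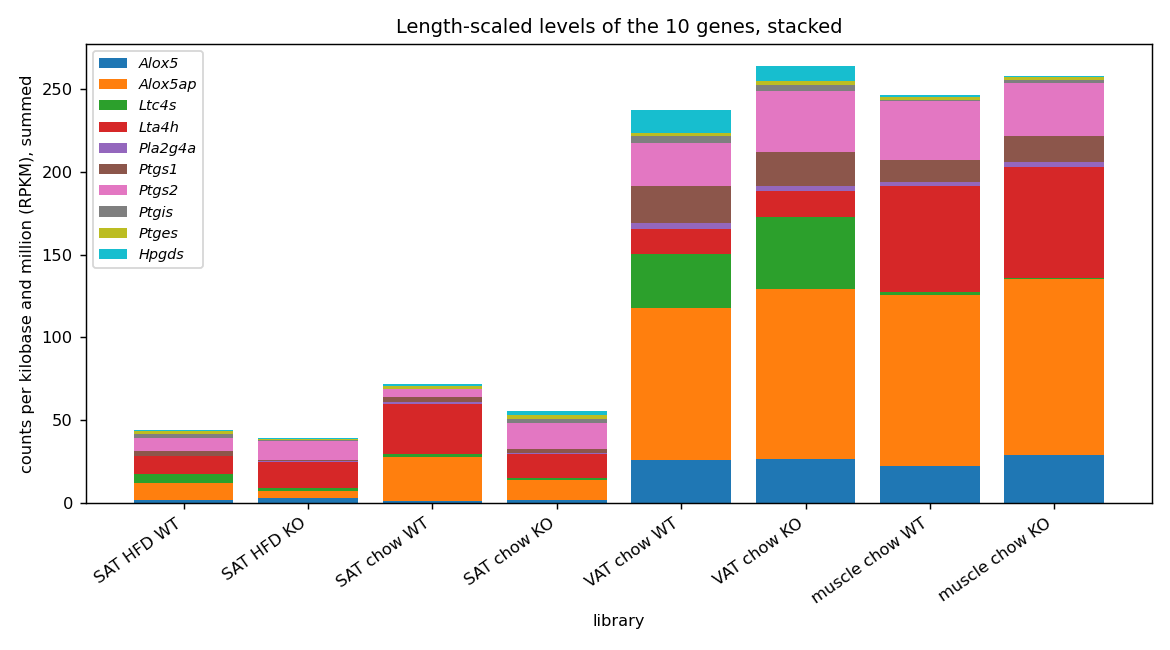
Stacked length-scaled levels (RPKM) of the 10 genes in each library. The stack reaches 237 to 264 RPKM in VAT and muscle and 39.0 to 71.8 in SAT, and the *Alox5ap* layer is the thickest in the 4 VAT and muscle libraries.

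For each gene, the 3 genes with the most similar pattern were taken from 11075 genes with a mean of at least 5 CPM, by the root mean square difference of log2 CPM (with 1 CPM added) over the 8 libraries after centring. The nearest to *Alox5ap* was *Lyz2*, which encodes a lysozyme of myeloid cells, at 0.25, followed by *Pik3r6* and *Clec4a2*. *Alox5* had no neighbour as close, with *Cd33*, *Clec4e* and *Lilrb4a* all at 0.57. *Ltc4s* lay near *Tmod1* and *Il1rl1*, the receptor of interleukin-33, at 0.38 and 0.41, and *Tmem37* at 0.50. *Hpgds* lay near *Cd209c* at 0.37, *Wwp1* at 0.40 and *Frmd4b* at 0.43. *Ptgs1* lay near *Rab31* at 0.20, *Mctp1* at 0.21 and *Siglecf* at 0.26. *Lta4h* had the closest neighbours, *Hmgb2* and *Abtb1* at 0.14 and *Tyms* at 0.18, *Hmgb2* and *Tyms* being genes of dividing cells. *Pla2g4a* was nearest to *Rnf144b* at 0.20, *Crip2* at 0.21 and *Eepd1* at 0.24. *Ptgs2* was nearest to *Rabgef1* at 0.22, and to *Epha2* and *Cdc42ep4* at 0.23. *Ptges* was nearest to *St7* at 0.19, *Fam220a* at 0.20 and *Mex3d* at 0.25. *Ptgis* was nearest to *Ank2* at 0.38, and to *Colec12* and *Pcsk5* at 0.39. The distance is not scaled to how much a gene varied. The root mean square of a gene's own centred values was 0.96 for *Lta4h*, 1.52 for *Ptgs1* and 1.69 for *Alox5ap*. The 8 points share their libraries and depth, and the distances are a description without a test.

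The rest of the pathway was read from 55 further genes, of which 43 were tested. Any difference between tissues and diets was called for 12 of the 43, against 7.83% of all genes. Of the 12, *Dpep1*, *Hpgd* and *Ltb4r1* were called in no comparison of 2 groups. *Hpgd* read 84.3 and 58.3 CPM (WT and KO) in VAT and 1.35 to 19.3 elsewhere. *Ltb4r1* read 104 and 91.3 in muscle, 44.2 and 58.6 in VAT and 0 to 15.1 in SAT. *Dpep1* read 4.24 and 5.87 in muscle, 23.3 and 27.1 in VAT and 16.2 to 70.3 in SAT. In VAT against SAT on chow 7 of the 43 were higher and 2 lower (3.31% and 1.74% of all genes). The higher ones were *Tbxas1*, thromboxane synthase (log2 3.70, adjusted p = 0.0109), *Pla2g2d* (3.37, 0.0158), *Pla2g7* (2.54, 0.0247) and *Pla2g15* (2.22, 0.0280), which are phospholipases, *Alox15* (2.46, 0.0357), a lipoxygenase of resident macrophages, *Ptgir*, the prostacyclin receptor (3.37, 0.0148), and *Cysltr1*, a receptor of cysteinyl leukotrienes (2.44, 0.0241). *Tbxas1* stood at 170.0 and 205 CPM in the WT and KO libraries of VAT, 19.0 and 11.8 in SAT on chow, 7.37 and 1.98 in SAT on HFD, and 22.5 and 17.6 in muscle. Thromboxane synthase was thus high in the same libraries as *Ltc4s* and *Hpgds*, and *Cysltr1*, at 59.2 and 61.3 CPM in VAT, was at 4.06 to 14.5 CPM elsewhere.

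The 2 pathway genes lower in VAT than in SAT were enzymes of the cysteinyl branch. *Mgst2*, a second enzyme able to make leukotriene C4, was at 3.58 and 4.35 CPM in VAT and at 16.4 to 49.9 CPM in the other 6 libraries, opposite to *Ltc4s* (log2 −2.42, SE 0.370, adjusted p = 0.0137). *Ggt1*, a transferase that can turn leukotriene C4 into leukotriene D4, was at 1.57 and 1.84 CPM in VAT and 18.9 and 12.1 in SAT on chow (log2 −3.17, adjusted p = 0.0334). Muscle against VAT gave *Mgst2* as higher (log2 3.51, adjusted p = 0.00616) and *Pla2g2d* (−6.47, 0.00498), *Tbxas1* (−3.29, 0.0202) and *Cysltr1* (−2.45, 0.0406) as lower. Of all genes 0.884% were higher and 1.05% lower there. In muscle against SAT on chow, *Fpr2*, a receptor for lipoxins and formyl peptides that neutrophils carry (log2 5.76, adjusted p = 0.0328), and *Ptgir* (2.95, 0.0428) were higher and 0 lower. That is 2 of the 43, where 1.11% of all genes were higher and 0.147% lower. *Fpr2* read 90.9 and 99.6 CPM in muscle, 11.3 and 8.32 in VAT, and 0 to 2.54 in SAT.

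These pathway calls depended on single libraries too. Without 1 library of VAT, or of muscle in the muscle comparisons, fewer of all genes were called as well. Of the 9 calls in VAT against SAT, 0 remained without the VAT KO library, 3 (*Pla2g7*, *Ptgir* and *Tbxas1*) without the VAT WT library and 5 without the SAT chow WT library. Of the 4 in muscle against VAT, *Pla2g2d* remained without any 1 library, and it was the sole one left without the VAT KO library or the WT or KO library of muscle. Neither call in muscle against SAT remained without the SAT chow WT library or the WT or KO library of muscle. *Ptgdr*, a receptor of prostaglandin D2, had 4 counts in the WT library of SAT on chow and 0 in the other 7. *Ptgds*, the other prostaglandin D2 synthase, had 3 counts in each muscle library and 0 elsewhere.

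The study deleted *Tert* with *Tie2e-cre*, and KO was compared with WT next. Across the 4 pairs, with tissue and diet as a block, 0 of the 10 genes passed the edgeR test, where 0.00589% of all genes (1 gene) did. At an unadjusted p under 0.05 it was 0 of the 10 genes and 1.64% of all genes, and DESeq2 called 0 of the 10 and 19 of all genes. The median log2 difference of the 10 genes was −0.18, against 0.02 over all genes. The difference nearest to the threshold was that of *Ptgs2* (log2 0.65, SE 0.321, unadjusted p = 0.0783 by edgeR), which was higher in KO in 3 of 4 pairs, and in 2 of 3 without the VAT pair, whose *Tert* counts go against the labels. *Alox5* was higher in KO in 4 of 4 pairs (log2 0.34, SE 0.217, unadjusted p = 0.155 by edgeR), as were 5.03% of all genes, and 4.53% were lower in all 4. Without the VAT pair it was higher in 3 of 3, as were 11.2% of all genes, and the counting intervals of *Alox5* spanned 0 in SAT on chow (log2 0.32, interval −0.10 to 0.74) and in VAT (0.033, −0.085 to 0.15). Of the other 43 pathway genes 0 were called.

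With 1 library per genotype, a difference within a pair describes those 2 libraries. Its 95% interval is the exact conditional binomial interval of the ratio and covers counting error only. In SAT on HFD 0 of the 10 genes had an interval wholly beyond 2-fold and higher in KO and 2 had one lower, where the shares of all genes were 12.7% and 11.1%. In SAT on chow it was 2 higher and 0 lower (19% and 11.7%). Neither direction held a gene when the VAT library labelled EC-*Tert*-KO was set against its WT (2.40% and 2.09% of all genes), or in muscle (2.75% and 2.05%). The median log2 ratio of the 10 genes was −0.96 in SAT on HFD, against 0.04 over all genes, and 0.05 in each other pair, against −0.01 to 0.01.

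**Figure D5:**
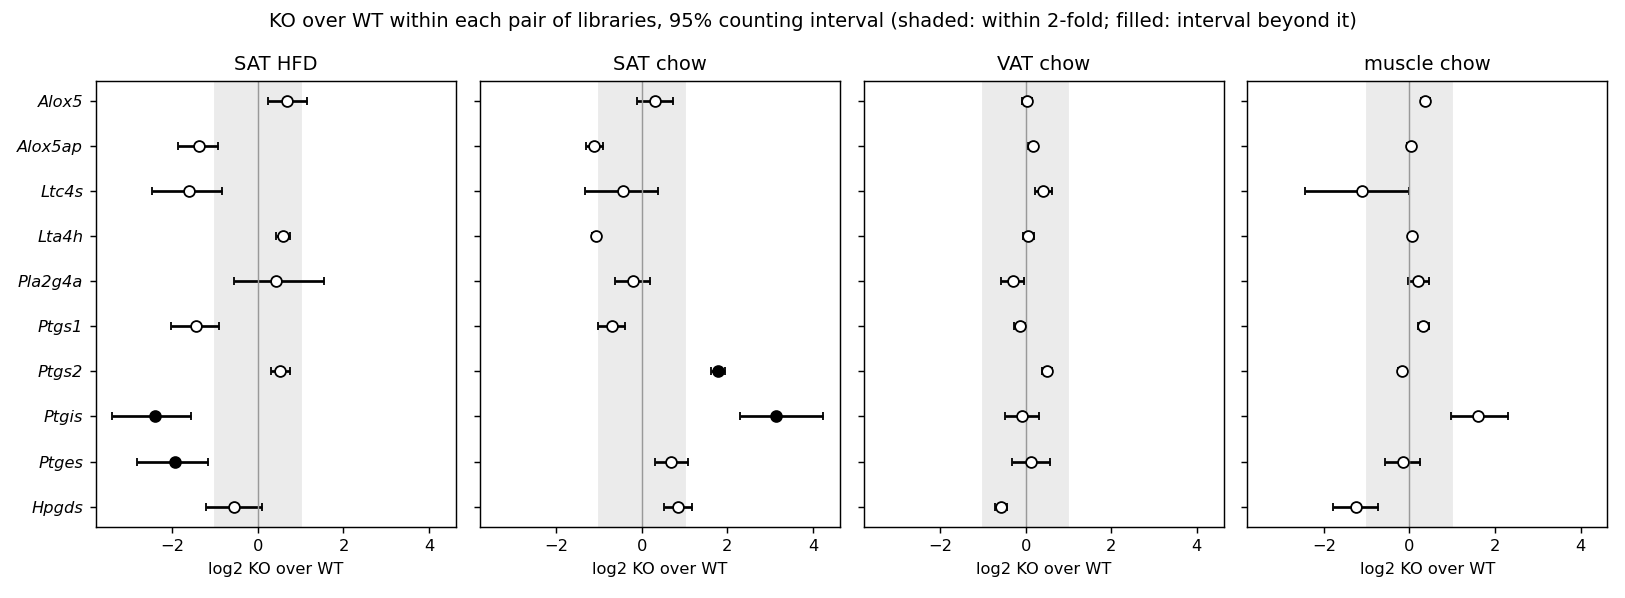
Log2 ratio of KO to WT (x axis) of each gene in the 4 pairs, with the 95% counting interval, the range within 2-fold shaded and points filled where the whole interval lies beyond it. The filled points are *Ptgis* and *Ptges* in SAT on HFD (−2.40 and −1.93) and *Ptgs2* and *Ptgis* in SAT on chow (1.78 and 3.14).

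In the SAT HFD pair counting intervals lay above 0 in 3 genes and below 0 in 5 (38.3% and 34.3% of all genes). The 2 genes beyond 2-fold were terminal prostaglandin synthases. *Ptgis* went from 43 counts in WT to 15 in KO (log2 −2.40, interval −3.40 to −1.57) and *Ptges* from 41 to 20 (−1.93, −2.81 to −1.16). *Alox5ap* (−1.38, −1.85 to −0.94), *Ltc4s* (−1.61, −2.47 to −0.83) and *Ptgs1* (−1.45, −2.02 to −0.92) were lower in KO too, with intervals that reached within 2-fold. *Alox5* (0.68, 0.23 to 1.16), *Lta4h* (0.59, 0.44 to 0.76) and *Ptgs2* (0.53, 0.31 to 0.75) were higher in KO. The partners *Alox5* and *Alox5ap* thus differed in direction in these 2 libraries, as did *Ptgs1* and *Ptgs2*. Of the 7 other prostaglandin and thromboxane synthase genes tested in this pair, 1 was beyond 2-fold higher in KO and 2 were lower. The higher one was *Ptges2* (17 to 129 counts, log2 1.98, interval 1.26 to 2.82). Among all 39 other pathway genes tested, 8 were higher and 7 lower, where the shares of all genes were 12.7% and 11.1%. Macrophage markers summed to 335 CPM in WT and 201 in KO there, and stromal markers to 2266 and 2294, and their part was not tested.

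In the SAT chow pair intervals lay above 0 in 4 genes and below 0 in 3 (40.9% and 40.3% of all genes). *Ptgs2* went from 352 to 1213 counts, 3.43-fold higher in KO (log2 1.78, interval 1.61 to 1.96), and *Ptgis* from 11 to 101 (log2 3.14, 2.29 to 4.24). *Hpgds* (0.84, 0.52 to 1.18) and *Ptges* (0.69, 0.32 to 1.08) were also higher in KO. *Alox5ap* (−1.10, −1.31 to −0.90), *Lta4h* (−1.07, −1.16 to −0.98) and *Ptgs1* (−0.70, −1.02 to −0.39) were lower. These values involve the WT library with low *Malat1*. In that pair the 9 stromal markers summed to 917 CPM in WT and 3425 in KO, the 7 mural markers to 56.5 (with *Cspg4* at 0) and 211, the macrophage markers to 866 and 447, the T cell markers to 1967 and 747, and the neutrophil markers to 332 and 97.5. Their part in the values was not tested. *Ptgis* showed opposite directions in the 2 SAT pairs.

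In the VAT pair intervals lay above 0 in 3 genes and below 0 in 3 (26.6% and 24.7% of all genes), and none lay beyond 2-fold. Relative to the library labelled WT, the one labelled EC-*Tert*-KO had more *Ptgs2* (119 and 168 CPM, log2 0.50, interval 0.40 to 0.61), *Ltc4s* (0.42, 0.21 to 0.62) and *Alox5ap* (0.16, 0.06 to 0.27). It had less *Hpgds* (−0.57, −0.72 to −0.43), *Pla2g4a* (−0.30, −0.57 to −0.03) and *Ptgs1* (−0.14, −0.27 to −0.0014). These 6 genes had 206 to 2282 counts per library. Mural markers summed to 165 CPM in the library labelled WT and 683 in the other, stromal markers to 1119 and 2318, EC markers to 2821 and 2084, and mast cell markers to 452 and 287, and their part was not tested.

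In muscle intervals lay above 0 in 4 genes and below 0 in 3 (26.7% and 29.4% of all genes). *Ptgis* went from 28 to 72 counts (log2 1.60, interval 0.97 to 2.31), *Hpgds* from 125 to 44 (−1.24, −1.78 to −0.74) and *Ltc4s* from 24 to 9 (−1.12, −2.45 to −0.0013). The remaining values lay between −0.17 for *Ptgs2* and 0.37 for *Alox5*. *Ptgis* was beyond 2-fold under DESeq2 size factors, library totals, upper quartile scaling or removal of the trend on gene length. Stromal markers summed to 758 CPM in WT and 1416 in KO, mural markers to 169 and 356, and macrophage markers to 720 and 348, and their part was not tested. In 8 of the 10 genes, counting intervals lay on opposite sides of 0 in at least 2 pairs, as in 65.1% of the 13598 genes tested in all 4 pairs. Without the VAT pair it was 6 of the 10, and 49.6% of the 14150 genes tested in the other 3 pairs, and the 2 genes that dropped out were *Alox5ap* and *Ltc4s*.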

How the data were processed

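RNA of FACS-sorted mG+ cells was sequenced after isolation with an RNeasy kit per the labels (Trizol per the study's methods) and library preparation with a SMARTER mRNA kit. The authors deposited raw counts per Ensembl gene, with no normalization, and the submitters' processing notes name HISAT2 2.0.5 and the builds GRCm38 and mm10. The counting program and the use of strand are not given in the sources used here, so reads of overlapping antisense genes cannot be told apart. Columns were matched to samples by tissue, diet and genotype.

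Here libraries were scaled by TMM (edgeR 4.0.16, R 4.3.3) over the 16971 genes whose counts averaged 10 or more. edgeR's quasi-likelihood test was fitted robustly to all 8 libraries, with tissue and diet and genotype as terms and with Benjamini-Hochberg adjustment over all genes at 0.05. The SE given with an edgeR difference is the size of the log2 difference divided by the square root of the F statistic of its test. Tissue and diet, which the labels give, form the block. After removal of genotype means, libraries of a pair correlated at 0.722 in VAT, 0.672 in muscle, 0.392 in SAT on HFD and 0.141 in SAT on chow, against −0.452 to 0.357 between pairs. This removal ties the values together, so that positive ones within pairs bring negative ones between pairs. The SAT chow libraries correlated less with each other than with those of SAT on HFD (0.357 and 0.325). Within pairs, log2 ratios had a prior count of 0.5. The lowest level that 3 counts allow was 0.181 to 0.451 CPM. Alternatives were other scalings and filters, DESeq2 1.42.0, a prior count of 5, removal of a length trend fitted in 100 bins, no block, no genotype term and leaving out libraries or pairs. The procedures were tested on simulated data. TMM over all genes, counts of directions without the VAT pair and the mast cell sum without *Hdc* were added after seeing the data. The 10 genes, the 55 further pathway genes and the 13 marker lists were chosen with earlier results of these data known. Values are given for pathway genes called in a comparison and for some others, among them genes at the same step as one of the 10. For each of the 10, the 3 genes nearest in pattern were named, leaving out predicted genes.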

Additional observations from a re-analysis of the deposited data

Results flagged for a closer look

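In 8 of the 10 genes the KO to WT difference had counting intervals on opposite sides of 0 in 2 pairs. With 1 library per genotype in a pair, the difference between pairs was not tested, and 65.1% of all genes tested in the 4 pairs showed the same. Without the VAT pair, whose *Tert* counts go against the labels, it was 6 of the 10 genes and 49.6% of all genes tested. *Ptgis* differed by 5.53 on the log2 scale between SAT on chow (3.14) and SAT on HFD (−2.40), and *Ptges* by 2.62 between the same pairs (0.69 and −1.93). *Hpgds* differed by 2.08 between SAT on chow (0.84) and muscle (−1.24), and *Ptgs2* by 1.95 between the same pairs (1.78 and −0.17). *Ltc4s* differed by 2.03 between VAT (0.42) and SAT on HFD (−1.61), and *Alox5ap* by 1.55 between the same pairs (0.16 and −1.38), where the VAT direction rests on libraries whose *Tert* counts go against their labels. *Ptgs1* differed by 1.78 between muscle (0.33) and SAT on HFD (−1.45), and *Lta4h* by 1.66 between SAT on HFD (0.59) and SAT on chow (−1.07).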

How the results depend on the processing

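The count of the 10 genes called stayed at 0 for KO against WT under each alternative, with or without the block. In muscle against SAT on chow it was 2, and became 1 with upper quartile scaling, 5 when genes with at least 1 count in total were tested and 6 by DESeq2. In HFD against chow it was 0, and 1 with the filter of at least 1 count. Within the muscle pair, 0 genes were beyond 2-fold, and 1 with DESeq2 size factors, totals, upper quartile scaling or the length trend removed. Leaving out 1 library, the count ran from 1 to 7 in VAT against SAT, 1 to 3 in muscle against SAT, 0 to 3 in muscle against VAT, 3 to 8 for any difference and 0 to 0 in HFD against chow.

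Of all genes, the main test called 1 for KO against WT (41 with the filter of at least 1 count, 19 by DESeq2, 0 without the block), 0 for HFD against chow (289 and 260), 857 for VAT against SAT (2116 and 2305), 213 for muscle against SAT (971 and 1058, and 339 without the genotype term), 328 for muscle against VAT (1166 and 1258, and 542 without the genotype term) and 1328 for any difference (3262 and 3339). Leaving out single libraries moved these to between 0 and 308 for HFD against chow, 93 and 3449, 37 and 1761, 41 and 1207, and 510 and 3896.

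Differences that had not passed the test, and *Alox5ap* in the VAT pair, changed sign. With library totals *Lta4h* in KO against WT became 0.036 and *Alox5* in muscle against VAT 0.0025. With upper quartile scaling *Ptges* in VAT against SAT became −0.010. *Ptgs2* in HFD against chow became −0.063 with TMM over all genes (chosen after seeing the data) and −0.10 without the genotype term. With no replicate block, that is without pairing by tissue and diet, *Ltc4s* went from −0.66 (SE 0.475) to 0.20 (SE 1.45) and *Pla2g4a* from 0.016 to −0.065 in KO against WT, and no call changed. With the length trend removed *Alox5ap* in the VAT pair became −0.032. The cause was not tested.

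Leaving out a pair, KO against WT ran from −0.10 to 0.15 for *Pla2g4a*, −0.61 to 0.22 for *Ptges*, −0.31 to 0.24 for *Lta4h* and −0.24 to 1.52 for *Ptgis*. Leaving out a library, HFD against chow ran from −1.67 to 2.54 for *Ptgis*, −1.30 to 0.070 for *Lta4h* and −0.54 to 0.90 for *Ptgs2*, and VAT against SAT from −1.08 to 0.28 for *Lta4h* and −0.43 to 0.83 for *Ptges*. Muscle against SAT ran from −0.63 to 0.62 for *Ptges* and −0.85 to 2.55 for *Ptgis*, and muscle against VAT from −0.27 to 0.14 for *Alox5*, −0.38 to 0.66 for *Alox5ap*, −0.42 to 0.010 for *Pla2g4a*, −0.45 to 0.11 for *Ptges* and −0.44 to 0.64 for *Ptgs2*. A tissue left with 1 library was assumed to vary like the others.

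Over all genes, library totals moved the median KO to WT ratio to 0.23 in SAT on chow, 0.16 in muscle and 0.12 in SAT on HFD, and the median of HFD against chow from −0.24 to −0.03. They moved the share of genes beyond 2-fold that were higher in KO from 57.3% to 70.2% in muscle and from 62.0% to 77.5% in SAT on chow. The lowest counts of the 10 genes, where counting error is widest, were 9 for *Ltc4s* in the KO library of muscle, 11 for *Ptgis* in the WT library of SAT on chow, which was the deepest, and 12 for *Pla2g4a* in the WT library of SAT on HFD.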
